A study of Mus musculus with 84 samples.

Results

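The genes described here encode enzymes that build, elongate, desaturate, store and burn fatty acids. They were taken from the 15k mouse cDNA arrays as the clones whose single gene symbol begins with Acad, Acaa, Acot, Acox, Acsl, Acss, Agpat, Cpt, Decr, Dgat, Echs, Eci, Elovl, Fads, Gpam, Hadh, Hmgc or Mgll, or equals Fasn, Acly or Acaca. The rule found 50 clones of 32 genes, among 11860 clones of 7766 genes that carry a single symbol, and the clones of a gene were averaged. By role, 5 genes belong to fatty acid synthesis, 5 to elongation and desaturation, 2 to the carnitine shuttle, 7 to mitochondrial beta-oxidation, 1 to peroxisomal oxidation, 4 to the acyl-CoA thioesterases, 6 to glycerolipid synthesis and lipolysis and 1 to sterol and ketone body synthesis. The remaining gene, Cptp, was caught by its prefix. It encodes a ceramide-1-phosphate transfer protein and no enzyme of these pathways.

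The measurements came from 65 arrays, each hybridized with Cy5-labelled RNA of 1 sample and Cy3-labelled RNA of a single reference pool of mouse organs. Every value is a log2 ratio of sample to that pool, so values can be compared between samples of a gene but not between genes. Normal glands (VMG, n = 5) came from virgin nontransgenic FVB mice aged 9 weeks. Hyperplastic glands (WntHMG, n = 7) came from MMTV-Wnt-1 mice of 9 weeks, and 23 primary tumors (WntT) from MMTV-Wnt-1 mice of 9 to 56 weeks. Another 12 tumors (NeuT) came from MMTV-Neu mice of 32 to 60 weeks. Lung metastases were taken from MMTV-Wnt-1 mice (WntM, n = 10), from MMTV-Neu mice (NeuM, n = 3) and from non-transgenic mice whose tail vein had received MMTV-Neu tumor cells (n = 2). The ages of the mice with metastases are not given in the sources used here. Intestinal fat (Fat, n = 3) came from virgin FVB mice of 12 weeks. Regulatory sequence of MMTV, active in mammary epithelium, controls both transgenes, through its enhancer elements in the case of Wnt-1. The Neu transgene is a rat cDNA of the wild-type gene. The MMTV-Wnt-1 mice were of mixed background, mostly FVB with SJL and C57BL/6, and the MMTV-Neu mice were pure FVB. Oncogene, strain and age therefore cannot be told apart in a comparison of the models. Strain likewise cannot be told apart from the transgene where Wnt-1 samples are set against FVB virgin glands. The authors' methods place all nontransgenic mice on FVB, while their results speak of nontransgenic littermates, so the background of the virgin glands is not settled. Glands were taken at 9 weeks and tumors at 9 to 56 or 32 to 60 weeks, so age also differs between them. The labels give 1 number per sample and do not say whether samples of a group came from separate mice. P-values therefore measure the spread between these samples.

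Fatty acid synthesis starts in the cytosol, where Acly and Acss2 supply acetyl-CoA, Acaca carboxylates it to malonyl-CoA, and Fasn extends the chain to palmitate. Elovl enzymes lengthen the product and Fads enzymes add double bonds, while Agpat and Dgat enzymes join fatty acids to glycerol for storage and Mgll takes part in releasing them. In mitochondria, Cpt1 proteins admit long-chain fatty acids that the Acad, Hadh, Eci and Decr enzymes then shorten. The mammary gland of a virgin mouse is a thin ductal tree within a fat pad, and both adipocytes and milk-producing epithelium are known for a high capacity to make triglyceride.

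Promoter sequence from RefSeq (build GRCm38.p6) was at hand for 27 of the 32 genes. The 250 bases before the transcription start are shown for 5 of them. Acss2, Fasn and Elovl5 were higher in Wnt-1 metastases than in Wnt-1 tumors. Elovl6 and Acadsb were lower in Wnt-1 than in Neu tumors, without overlap once clones were averaged. Capitals mark matches, on either strand, to the CCAAT box (CCAAT), the GC box (GGGCGG), the E-box (CACGTG) or the core recognition site of nuclear receptors (AGGTCA).

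Acss2 (chr2:155517793-155518042, plus strand): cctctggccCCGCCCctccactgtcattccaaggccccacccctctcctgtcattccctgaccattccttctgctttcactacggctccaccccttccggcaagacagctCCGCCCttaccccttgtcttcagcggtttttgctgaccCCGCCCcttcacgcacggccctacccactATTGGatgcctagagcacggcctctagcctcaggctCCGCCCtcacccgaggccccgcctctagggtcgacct

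Fasn (chr11:120824548-120824797, minus strand): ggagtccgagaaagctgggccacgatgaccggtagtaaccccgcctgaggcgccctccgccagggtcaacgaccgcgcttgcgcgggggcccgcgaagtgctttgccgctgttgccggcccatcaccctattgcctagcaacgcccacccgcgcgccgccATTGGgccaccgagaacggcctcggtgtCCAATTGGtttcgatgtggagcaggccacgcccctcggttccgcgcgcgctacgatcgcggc

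Elovl5 (chr9:77917115-77917364, plus strand): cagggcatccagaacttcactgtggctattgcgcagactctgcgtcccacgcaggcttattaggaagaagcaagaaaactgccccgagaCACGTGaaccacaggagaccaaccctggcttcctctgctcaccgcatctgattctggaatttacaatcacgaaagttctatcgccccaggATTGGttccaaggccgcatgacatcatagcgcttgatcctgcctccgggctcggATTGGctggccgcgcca

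Elovl6 (chr3:129532136-129532385, plus strand): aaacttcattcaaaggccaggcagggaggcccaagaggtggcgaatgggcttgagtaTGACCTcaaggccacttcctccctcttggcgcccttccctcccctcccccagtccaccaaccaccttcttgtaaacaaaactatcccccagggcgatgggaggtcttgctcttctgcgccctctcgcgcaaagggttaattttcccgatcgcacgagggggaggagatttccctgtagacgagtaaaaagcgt

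Acadsb (chr7:131410351-131410600, plus strand): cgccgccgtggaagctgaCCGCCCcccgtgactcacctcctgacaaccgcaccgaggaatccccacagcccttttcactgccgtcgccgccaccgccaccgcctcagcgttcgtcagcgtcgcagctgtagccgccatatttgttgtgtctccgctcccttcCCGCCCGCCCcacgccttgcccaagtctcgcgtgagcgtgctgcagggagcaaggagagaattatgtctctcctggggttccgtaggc

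CCAAT was found once in Acss2, 3 times in Fasn, where a match on each strand overlaps, and 2 times in Elovl5, and 0 times in the windows of Elovl6 and Acadsb. Over all 32851 promoters of the same source, 33.8% held it, against 14 of the 27 members with a promoter. GGGCGG was found 4 times in Acss2 and 3 times in Acadsb. That motif was in 32.7% of all promoters and in 19 of the 27 members. CACGTG stood in Elovl5 alone among these 5 and in 3 of the 27 members, with 6.02% over all promoters. AGGTCA stood in Elovl6 and in 9 of the 27 members, with 14% over all promoters. The sterol element letters TCAC and CCAC with 1 base between them were found in 1 member, Hmgcs1, and in 1.05% of all promoters. The shares over all promoters count each entry, while a member counts once if any of its entries holds the motif, so the units differ. These matches are letters in a window and were not tested as binding sites.

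Array medians lay between -0.144 and 0.043, and the spread within an array, as an SD in log2 units, between 0.67 and 2.59. The SD was over 1.3 on 6 arrays: WntT 42 and 49, WntM 19, 50 and 52, and Fat 44. Fat 44 was the widest. The labelled tissues were checked against marker genes. The mean log2 ratio of 13 adipocyte genes was 2.89 ± 0.302 (SD, n = 3) in fat, 2.01 ± 0.104 (SD, n = 5) in virgin glands, 0.97 ± 0.159 (SD, n = 7) in hyperplastic glands, -1.31 ± 0.344 (SD, n = 23) in Wnt-1 tumors and -1.44 ± 0.249 (SD, n = 12) in Neu tumors. The 8 lung epithelium genes averaged -2.73 and -2.65 in Wnt-1 and Neu tumors, 0.43 in Wnt-1 metastases and -0.64 in Neu metastases. The 9 skeletal muscle genes averaged 2.63 in virgin and 2.19 in hyperplastic glands and -0.50 in Wnt-1 tumors. In bulk tissue, fewer cells of a type and less RNA per cell cannot be told apart.

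**Figure D1:**
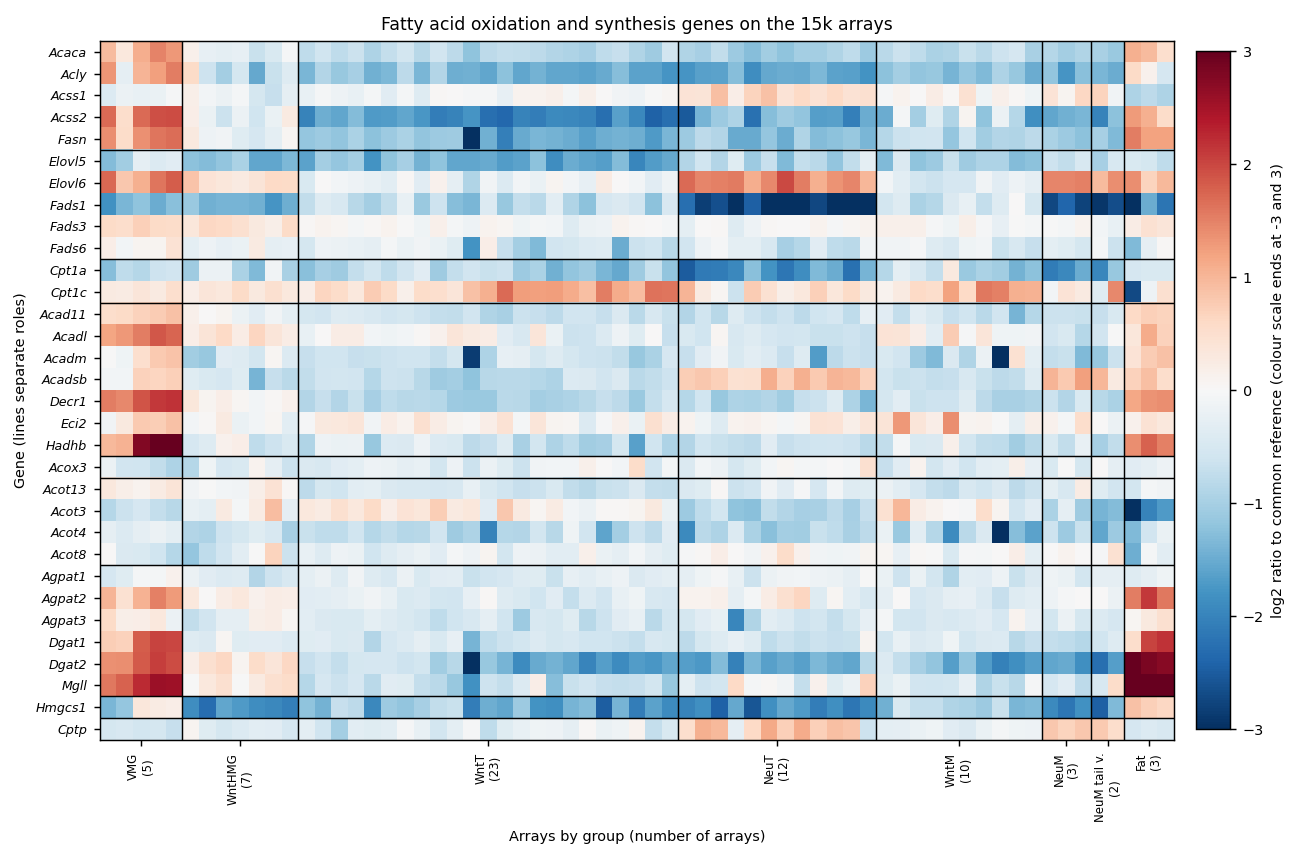
Heat map of the 32 genes (rows, ordered by role, lines between roles) on the 65 arrays (columns, by group). Colour gives the log2 ratio to the common reference, red above and blue below, with the scale ending at -3 and 3. The rows of Acaca, Acss2, Fasn, Decr1, Hadhb, Dgat2 and Mgll are red in virgin glands and fat and mostly blue in tumors, and the row of Fads1 is darkest in the Neu groups.

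The first comparison asks how the genes differ between a hyperplastic Wnt-1 gland and a normal virgin gland. Of the 32 genes, 19 were lower and 1 was higher in hyperplastic glands by limma at an adjusted p under 0.05. Over all 7766 genes 23.8% were called, 14.3% of them lower and 9.58% higher as shares of all genes tested. The median difference of the 32 was -0.70 on the log2 scale, against -0.02 over all genes. In 13 of the 32, all 7 hyperplastic glands lay below all 5 virgin glands, as did 6.72% of all genes. In 1 of the 32 they all lay above, as did 5.74% of all genes.

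The supply and assembly of palmitate fell together, with 4 of the 5 synthesis genes lower. Acss2, which makes acetyl-CoA from acetate, was at 0.52, 1.69, 1.69, 1.94 and 1.97 in the virgin glands and between -0.65 and 0.26, with a median of -0.19, in the hyperplastic glands. The groups did not overlap, and the difference was -1.75 ± 0.243 (SE), or 3.37-fold (limma adjusted p = 0.000291). Fasn, the fatty acid synthase, was at 0.54, 1.36, 1.39, 1.60 and 1.68 in virgin glands and between -0.50 and 0.28, median -0.16, in hyperplastic glands. Fasn was thus 2.78-fold lower without overlap (limma adjusted p = 0.000209). Acaca, the rate-limiting carboxylase, was at 0.31, 0.96, 1.10, 1.29 and 1.49 against -0.67 to 0.16, median -0.26. Its groups were also apart, with a fall of 2.44-fold (limma adjusted p = 0.000384). Acly, which cleaves citrate to acetyl-CoA, was at -0.27, 1.03, 1.23, 1.33 and 1.54 in virgin glands and between -1.54 and 0.56, median -0.61, in hyperplastic glands. The virgin gland of array 17 overlapped the hyperplastic range, and the difference was -1.57 ± 0.345 (limma adjusted p = 0.00499). The same array 17 had the lowest value of the virgin glands for Acss2, Fasn and Acaca. The fifth gene, Acss1, the mitochondrial enzyme that activates acetate, averaged -0.21 in virgin and -0.23 in hyperplastic glands and was not called.

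**Figure D2:**
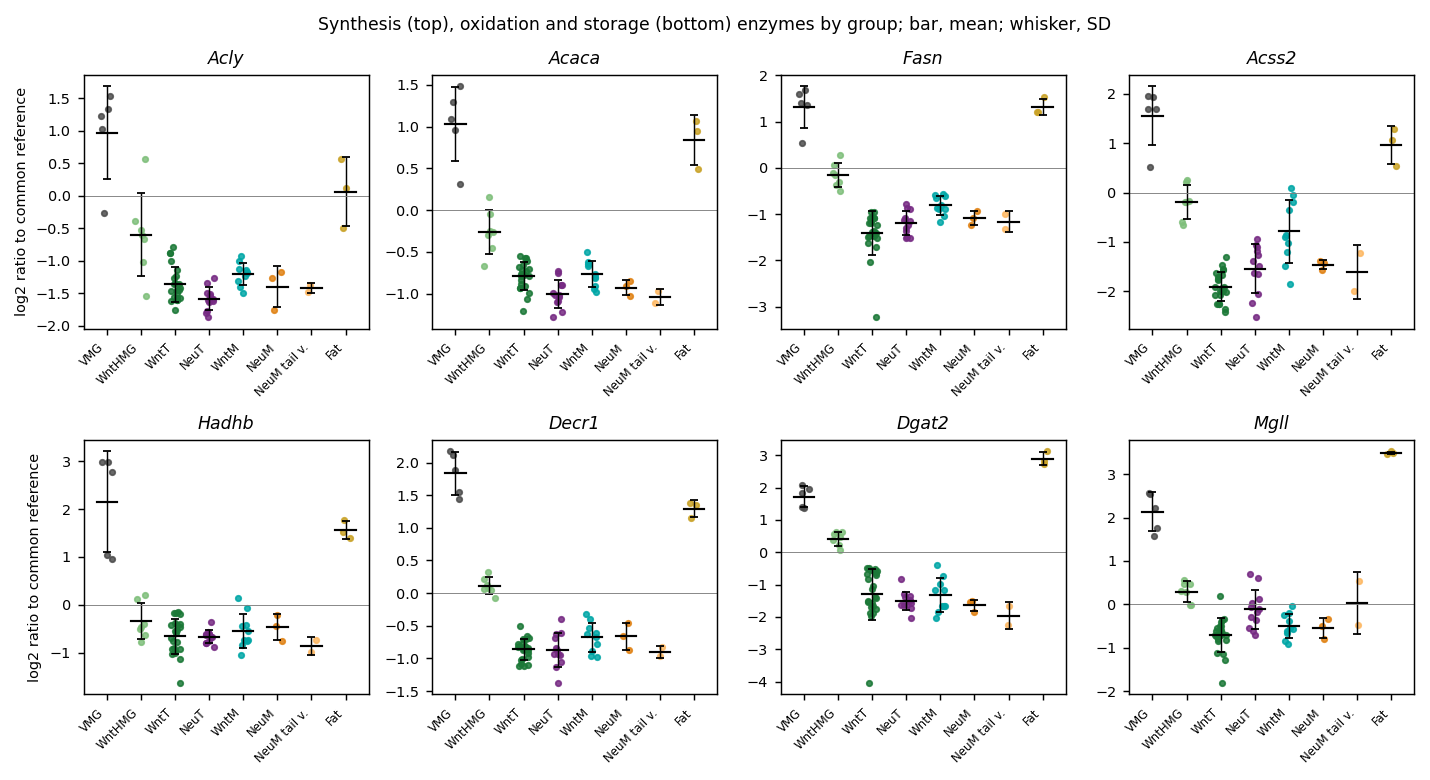
Log2 ratio to the common reference of 8 genes by group, 1 point per array, with the group mean (bar) and SD (whisker). Each of the 8 is highest in virgin glands or fat, intermediate in hyperplastic glands and low in tumors, and Hadhb splits the virgin glands into 2 arrays near 1 and 3 near 3.

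All 7 genes of mitochondrial beta-oxidation were lower in hyperplastic glands. Hadhb, the beta subunit of the trifunctional protein, had the largest difference of the 32, at -2.50 ± 0.372 (limma adjusted p = 0.000444). Its virgin glands stood at 0.97 and 1.03 on arrays 13 and 17 and at 2.79, 2.98 and 2.99 on arrays 27, 28 and 29, against -0.77 to 0.21, median -0.46, in hyperplastic glands. Even the lower pair of virgin glands lay above all hyperplastic glands. Decr1, which prepares unsaturated fatty acids for oxidation, fell 3.3-fold with a narrower spread, from 1.83 ± 0.33 (SD, n = 5) to 0.11 ± 0.131 (SD, n = 7) (limma adjusted p = 2.09e-05). Acadl and Acadsb, dehydrogenases of long and of short or branched chains, fell 2.23-fold and 2.04-fold, and neither overlapped between the groups. Acad11 fell 1.71-fold. Acadm, the medium-chain dehydrogenase, fell 1.93-fold and Eci2, an isomerase, 1.48-fold, both with overlap.

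The virgin glands were not uniform for these genes. Arrays 13 and 17 lay below arrays 27, 28 and 29 for Hadhb, Acadm, Acadsb, Eci2, Dgat1, Elovl5 and Hmgcs1, among others. Hmgcs1, which makes HMG-CoA in the cytosol for sterol synthesis, was at -1.36 and -1.16 on the first pair and at 0.35, 0.25 and 0.19 on the other arrays. Cidea, a lipid droplet protein abundant in brown fat, moved with them, at -0.62 and -0.28 against 0.71, 1.35 and 1.38. The 4 measured brown adipocyte genes include Cidea itself. Their mean was -0.02 and 0.09 on the first pair and 0.53, 0.68 and 0.53 on the others. Ucp1, the defining brown fat gene, lay between -0.14 and 0.52 on all 5 arrays, and Adipoq between 4.38 and 4.96. The part of brown fat content in these differences was not tested. Without any 1 virgin gland, 17 to 21 of the 32 genes were called, and Acot4, Eci2 and Elovl5 were no longer called when array 27, 28 or 29 was left out.

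Among the genes of storage and lipolysis, 4 of 6 were lower. Mgll, monoacylglycerol lipase, was at 1.58, 1.76, 2.23, 2.54 and 2.57 in virgin glands and between -0.02 and 0.56, median 0.31, in hyperplastic glands. That is a 3.59-fold fall without overlap (limma adjusted p = 7.21e-05). Dgat1, one of the enzymes that complete triglyceride, was at 0.70, 0.73, 1.80, 2.01 and 2.03 against -0.43 to 0.06, median -0.37. It fell 3.4-fold, again without overlap. Dgat2, the other such enzyme, fell 2.47-fold and Agpat2, which makes phosphatidic acid, 1.81-fold. Elovl6, which extends palmitate, fell 1.89-fold and Hmgcs1 2.92-fold. Of the 2 Elovl6 clones, the first averaged 2.48 in virgin and 0.60 in hyperplastic glands and the second 0.33 and 0.37. The only riser was Acot3, a peroxisomal acyl-CoA thioesterase. It was at -0.85, -0.83, -0.72, -0.64 and -0.50 in virgin glands and between -0.29 and 0.92, median -0.05, in hyperplastic glands, a 1.73-fold rise without overlap (limma adjusted p = 0.00739). The carnitine palmitoyltransferases Cpt1a and Cpt1c were not called.

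Related pathways were read from lists of measured genes. Of 24 other oxidation genes 17 were lower and 1 higher, with a median difference of -0.73. Examples are Etfb and Etfa, which carry electrons from the dehydrogenases, at -1.11 and -1.14, and Hacl1 at -0.91. Of 21 genes of fatty acid uptake and storage 13 were lower and 1 higher. The smallest adjusted p was that of Lpl, the lipase that frees circulating fatty acids, at -1.62 (limma adjusted p = 5.14e-05). Cd36 and Fabp4, which take up and carry fatty acids, were at -1.08 and -1.31. Of 11 lipogenic partners 3 were lower and 1 higher. Scd1, the stearoyl-CoA desaturase, fell by 1.3 while Hacd3, of the elongation cycle, rose by 0.61. Of 15 regulators 5 were lower, with Pparg, the adipocyte fate factor, at -1.22 and Cebpa at -0.99. None of the 10 genes of cholesterol synthesis after HMG-CoA was called by limma, with an unadjusted p under 0.05 in 3 and the smallest adjusted p, 0.0988, in Hsd17b7.

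Adipocyte markers moved with the enzymes. Of the 13 measured, 11 were lower in hyperplastic glands, with a median difference of -1.08. Their mean ranged from 1.86 to 2.15 in virgin and from 0.77 to 1.2 in hyperplastic glands. The list shares Lpl, Cd36, Fabp4, Plin1, Cidec and Lipe with the uptake and storage list. It shares Pparg and Cebpa with the regulators, so these are not separate readings. Luminal epithelium genes moved the other way, with 5 of 8 higher and 1 lower. Of 9 skeletal muscle genes 2 were lower, and of 10 endothelial genes 6, with a median of -0.65 and none higher. The part of fat cell content and of the other cell types in the fall of the enzymes was not tested.

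The second comparison asks what separates a Wnt-1 tumor from the hyperplastic gland. In tumors 15 of the 32 genes were lower and 3 higher, where 44.1% of all genes were called (22.2% lower and 21.9% higher). The median difference of the 32 was -0.28, against -0.03 over all genes. Of the 32 genes, 8 had all 23 tumors below all 7 hyperplastic glands, against 4.87% of all genes, and none had all of them above, against 3.27%.

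The 4 genes of largest fall, Dgat2, Acss2, Fasn and Mgll, belong to synthesis and storage. Acss2 was between -2.42 and -1.30, median -1.94, in tumors, and no tumor reached the lowest hyperplastic gland at -0.65. Its difference was -1.72 ± 0.132, or 3.29-fold (limma adjusted p = 6.44e-12). Dgat2 ran from -4.04 to -0.50, median -1.39, in tumors against 0.07 to 0.63, median 0.47, in hyperplastic glands, without overlap and with the same 3.29-fold size. Fasn ran from -3.23 to -0.95, median -1.37, and was 2.39-fold lower without overlap (limma adjusted p = 1.41e-06). The lowest tumor for both Dgat2 and Fasn was array 42, one of the wide arrays. Acly was 1.7-fold lower, at -1.76 to -0.79, median -1.44, and 8 of 23 tumors lay below all hyperplastic glands. Acaca was 1.45-fold lower, at -1.21 to -0.54, median -0.76, and 18 of 23 tumors lay below all hyperplastic glands. Its 3 clones averaged -0.22, -0.16 and -0.40 in hyperplastic glands and -0.79, 0.01 and -1.60 in tumors, so the second did not fall.

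Oxidation genes took a smaller and less even part. Decr1 fell 1.96-fold with all 23 tumors below all hyperplastic glands, Acad11 1.44-fold and Acadl 1.4-fold. Hadhb, Acadm, Acadsb and Eci2 were not called, and Hadhb averaged -0.34 in hyperplastic glands and -0.66 in tumors. The genes higher in tumors were Fads1, Cpt1c and Hmgcs1. Fads1, the delta-5 desaturase, was between -1.77 and -1.12, median -1.44, in hyperplastic glands and between -1.38 and -0.22, median -0.73, in tumors, where 17 of 23 lay above all hyperplastic glands (1.59-fold, limma adjusted p = 0.00014). Cpt1c, a brain-type carnitine palmitoyltransferase, was 1.45-fold higher, at 0.16 to 1.69, median 0.90, against 0.21 to 0.58, median 0.33. Hmgcs1 was 1.39-fold higher, at -2.48 to -0.66, median -1.40, against -2.29 to -1.57, median -1.87. Both overlapped between the groups.

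The adipocyte genes fell further in this step, with 10 of 13 lower and a median difference of -1.80. All 9 skeletal muscle genes were lower as well, with a median of -2.43. Oxidation partners had 15 of 24 lower and 2 higher. The 3 of smallest adjusted p were Etfb at -1.2, Crat, the carnitine acetyltransferase, at -1.11 and Etfdh at -0.83. Among lipogenic partners 5 of 11 were lower and 2 higher. Scd1 fell by 3.26 (limma adjusted p = 1.1e-16) and Mid1ip1, an activator of acetyl-CoA carboxylase, by 1.06, while Pgd of the pentose phosphate pathway rose by 0.41. Cholesterol synthesis went the other way, with 4 of 10 genes higher and none lower. Ebp rose by 0.50, Hsd17b7 by 0.52 and Dhcr7 by 0.84. Of the uptake and storage genes 12 of 21 were lower and 1 higher, with the smallest adjusted p in Lpl at -3.41, Pnpla2, a triglyceride lipase, at -1.34 and Cd36 at -1.80. Of the regulators 5 of 15 were lower and 3 higher, with Pparg at -1.80, Nr1h3, the liver X receptor alpha, at -1.19 and Mbtps1, a protease that activates sterol regulatory factors, at 0.75.

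Against virgin glands, most of the 32 genes were lower in both tumor types. In Wnt-1 tumors 23 of the 32 genes were lower and 4 higher, where 52.4% of all genes were called (26.5% lower and 26% higher). All Wnt-1 tumors lay below all virgin glands for 18 of the 32 and above them for 1, against 12.5% and 7.97% of all genes. In Neu tumors 22 were lower and 5 higher, where 55.6% of all genes were called (28.8% lower and 26.8% higher). All Neu tumors lay below all virgin glands for 16 of the 32 and above them for 1, against 16% and 11.7% of all genes. These 2 comparisons share the 5 virgin glands. Markers of other cells moved with them. Of 13 adipocyte genes 12 were lower in either tumor type, with a median of -2.88 in Wnt-1 and -2.98 in Neu tumors. Skeletal muscle genes were lower for 9 of 9 and 8 of 9, and endothelial genes for 9 of 10 in either type. Their part in the lower values was not tested. Acss2 was 11.1-fold lower in Wnt-1 and 8.59-fold lower in Neu tumors. Dgat2 was 8.13-fold and 9.37-fold lower, Hadhb 7.02-fold and 7.04-fold, Fasn 6.64-fold and 5.69-fold, Decr1 6.48-fold and 6.49-fold, and Acly 5.06-fold and 5.9-fold. Each of these 6 genes had no tumor within the range of the virgin glands. In Neu tumors Acss2 ran from -2.53 to -0.93, median -1.44, Dgat2 from -2.03 to -0.83, median -1.54, and Hadhb from -0.89 to -0.35, median -0.65.

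Acadsb and Fads1 were called in opposite directions in these 2 comparisons. Acadsb averaged 0.38 in virgin glands, -0.74 in Wnt-1 and 0.79 in Neu tumors, and Fads1 -1.43, -0.76 and -3.11. The rise of Acadsb in Neu tumors was small. Its values of 0.46 to 1.10 there overlapped the virgin glands at -0.09 to 0.71, and the call was lost in 2 alternative settings. Acox3, the pristanoyl-CoA oxidase of peroxisomes, was 1.3-fold and 1.41-fold higher in Wnt-1 and Neu tumors. Acss1 rose in Neu tumors, which ran from 0.21 to 0.90, median 0.45, above all virgin glands at -0.42 to -0.04 (1.67-fold, limma adjusted p = 9.47e-06). Cptp ran from -0.61 to 1.12, median 0.78, in Neu tumors against -0.70 to -0.49 in virgin glands, 2.29-fold higher, with 11 of 12 tumors above all virgin glands. Neither Acss1 nor Cptp was called between Wnt-1 tumors and virgin glands.

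The third comparison sets Wnt-1 tumors against Neu tumors and asks how these genes differ between the models. Of the 32 genes, 8 were higher and 11 lower in Wnt-1 tumors, where 45.8% of all genes were called (22.8% higher and 23% lower). After quantile normalization 5 were higher and 12 lower. The median difference was -0.01 for the 32 and -0.03 over all genes. So the 32 genes did not move one way, and a few had large and clean differences. All Wnt-1 tumors lay above all Neu tumors for 2 of the 32 genes and below them for 3, against 2.3% and 3.01% of all genes.

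Fads1 had the largest difference of the 32. It ran from -1.38 to -0.22, median -0.73, in the 23 Wnt-1 tumors and from -3.94 to -2.26, median -3.24, in the 12 Neu tumors. The ranges were far apart, at 2.35 ± 0.145 (SE), or 5.1-fold higher in Wnt-1 tumors (limma adjusted p = 7.1e-16). Acot3 ran from -0.34 to 0.82, median 0.28, against -1.25 to -0.54, median -0.93, and was 2.21-fold higher without overlap (limma adjusted p = 1.31e-12). Cpt1a, the liver-type gatekeeper of mitochondrial fatty acid entry, ran from -1.52 to -0.34, median -1.0, against -2.49 to -1.26, median -1.90. It was 1.89-fold higher, with 20 of 23 Wnt-1 tumors above all Neu tumors (limma adjusted p = 9.21e-08).

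In the other direction stood Elovl6, Acadsb and Cptp. Elovl6, averaged over its clones, ran from -0.91 to 0.24, median -0.12, in Wnt-1 and from 1.01 to 1.98, median 1.46, in Neu tumors. It was 3.03-fold lower in Wnt-1 tumors without overlap (limma adjusted p = 5.08e-17). Its first clone did overlap, at -2.65 to 0.05 in Wnt-1 and -0.24 to 0.60 in Neu tumors. The second did not, at -0.15 to 1.00 and 2.09 to 3.76. Acadsb ran from -1.21 to -0.41, median -0.75, against 0.46 to 1.10, median 0.76, a 2.89-fold difference without overlap (limma adjusted p = 1.32e-18). The dehydrogenases thus split, since Acadl was 1.32-fold higher in Wnt-1 tumors, and Acadm and Acad11 were not called. Cptp ran from -1.03 to 0.11, median -0.29, against -0.61 to 1.12, median 0.78, and was 1.94-fold lower with overlap. Acss1 was 1.51-fold lower with all 23 Wnt-1 tumors below all Neu tumors, and Elovl5, an elongase of polyunsaturated chains, was 1.59-fold lower.

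Averaged over clones, the core synthesis enzymes differed little between the models. Acaca was 1.16-fold higher in Wnt-1 tumors, at a median of -0.76 against -1.02 in Neu tumors, where the range was -1.28 to -0.73. Its 3 clones averaged -0.79, 0.01 and -1.60 in Wnt-1 tumors and -0.85, 0.03 and -2.18 in Neu tumors. Acly was 1.17-fold higher, at a median of -1.44 against -1.60, with a Neu range of -1.87 to -1.27. Fasn had a difference of -0.22, with a 95% interval from -0.51 to 0.07, and was not called (limma adjusted p = 0.217). Its Neu tumors ran from -1.51 to -0.78, median -1.19. Acss2 was 1.29-fold lower in Wnt-1 tumors with wide overlap. Dgat1, Dgat2, Hadhb and Decr1 were not called, with 95% intervals of the difference from -0.20 to 0.16, -0.26 to 0.67, -0.22 to 0.23 and -0.14 to 0.15.

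**Figure D3:**
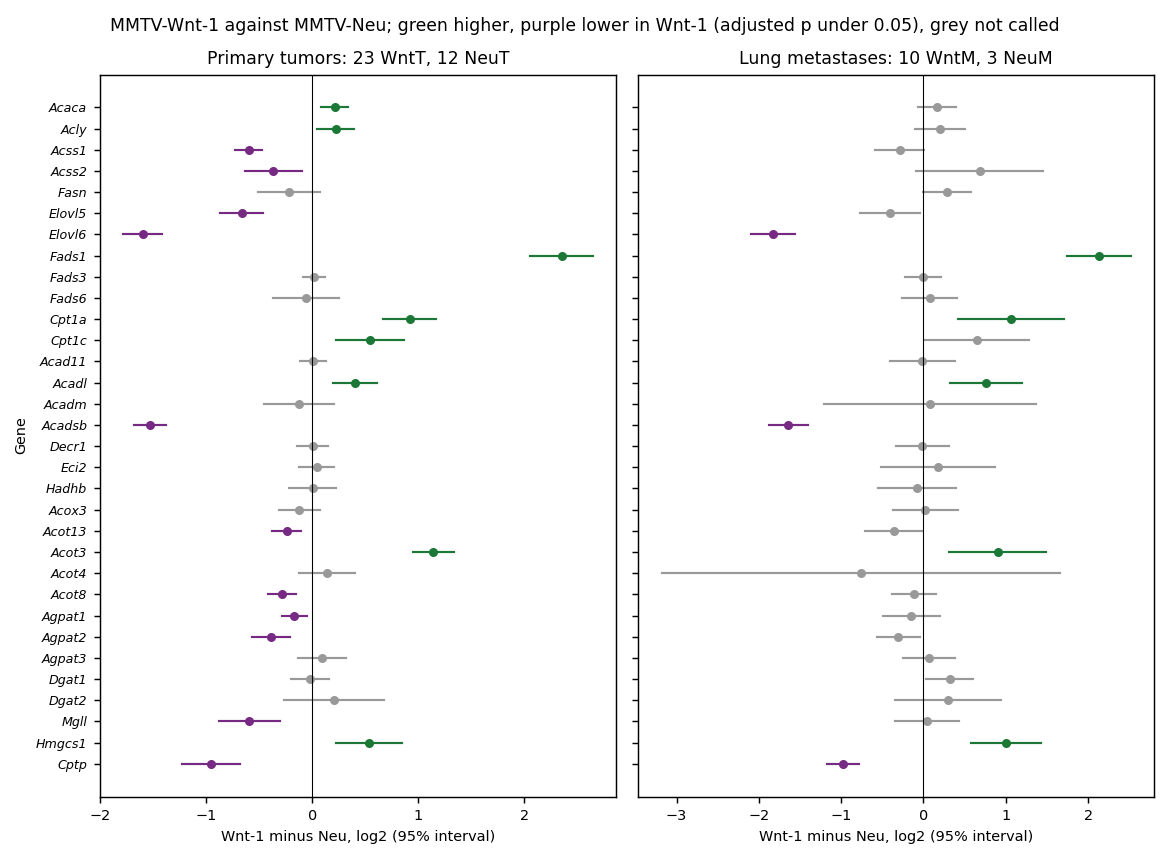
Difference between Wnt-1 and Neu samples in log2 units for each of the 32 genes, with its 95% interval, in primary tumors (left) and lung metastases (right), on separate scales. Fads1 lies far to the right and Elovl6 and Acadsb to the left on both sides, and the interval of Acot4 in metastases is the widest because of array 50.

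Among the regulators, 4 of 15 were higher and 1 lower in Wnt-1 tumors. The lower one was Srebf1, the sterol regulatory factor that drives lipogenic genes, with means of 0.28 in Wnt-1 and 2.71 in Neu tumors and a 5.4-fold difference (limma adjusted p = 8.83e-16). Nrip1 and Nr1h3 were higher by 0.44 and 0.67. Lipogenic partners had 2 of 11 higher and 4 lower. Slc25a1, which exports citrate from mitochondria, was lower by 1.07 on the log2 scale in Wnt-1 tumors, Dbi, an acyl-CoA binding protein, by 1.10, and Scd1 by 0.68. Oxidation partners were mostly lower in Wnt-1 tumors, 14 of 24 with 3 higher and a median of -0.31. Pex5, the peroxisomal import receptor, was at -0.59, Crot, the carnitine octanoyltransferase, at -1.05 and Etfa at -0.69. Uptake and storage genes had 6 of 21 lower and 1 higher, with Slc27a4, a fatty acid transporter, at -1.23, Vldlr at -1.54 and Cd36 at -1.48. Cholesterol synthesis had 3 of 10 lower and 1 higher, with Dhcr7 at -1.03, Ebp at -0.35 and Hsd17b7 at -0.34. Cell type markers differed too. Myoepithelial genes were higher in Wnt-1 tumors for 5 of 6, with a median of 1.15, endothelial genes for 6 of 10 with 1 lower, and adipocyte genes for 2 of 13 with 2 lower. Their part in these differences was not tested.

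The same contrast in lung metastases rests on 3 Neu samples. Of the 32 genes, 5 were higher and 3 lower in Wnt-1 metastases, where 16.6% of all genes were called (7.53% higher and 9.07% lower). All Wnt-1 metastases lay above all Neu metastases for 4 of the 32 and below them for 3, against 6.09% and 8.81% of all genes. Fads1 was at -2.78, -2.74 and -2.39 in Neu metastases and between -0.96 and 0.01, median -0.48, in Wnt-1 metastases, 4.38-fold higher without overlap (limma adjusted p = 6.67e-06). Elovl6 was at 1.46, 1.47 and 1.51 against -0.64 to -0.09, median -0.33, 3.55-fold lower (limma adjusted p = 1.07e-06). Acadsb was at 0.80, 1.01 and 1.22 against -0.78 to -0.38, median -0.67, 3.12-fold lower (limma adjusted p = 8.95e-07). None of these 3 genes overlapped between the models.

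Cpt1a was at -2.11, -1.94 and -1.48 in Neu metastases and between -1.41 and 0.30, median -0.91, in Wnt-1 metastases, 2.09-fold higher without overlap. Hmgcs1 was at -2.16, -1.92 and -1.83 against -1.44 to -0.47, median -0.92, 2.01-fold higher without overlap. Cptp was at 0.67, 0.80 and 0.81 against -0.43 to -0.06, median -0.20, 1.97-fold lower without overlap. Acot3 and Acadl were 1.87-fold and 1.7-fold higher. Without Neu metastasis 53 the count was 5, since Cpt1a, Acot3 and Acadl then had limma adjusted p of 0.127, 0.15 and 0.0652. The tail vein metastases, which entered no main test, were at -2.91 and -2.65 for Fads1, 0.94 and 1.39 for Elovl6 and 0.99 and 0.27 for Acadsb. For each of these genes they lay nearer the Neu metastases than any Wnt-1 metastasis did. The regulators again included Srebf1, at a mean of 0.13 in Wnt-1 and 2.28 in Neu metastases (limma adjusted p = 7.79e-05), with 2 of 15 higher and 1 lower in all. Oxidation partners had 4 of 24 lower and none higher, with the smallest adjusted p in Crot at -1.31 and Etfa at -0.80. Of the cell type markers, myoepithelial genes were higher in Wnt-1 metastases for 5 of 6, with a median of 1.09, and endothelial genes for 4 of 10 with none lower. Lung epithelium genes had a median of 1.32, with 1 of 8 higher, 1 lower and 7 at an unadjusted p under 0.05. Their part in these differences was not tested.

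The next comparison sets lung metastases against primary tumors of the same model. Between Wnt-1 metastases and Wnt-1 tumors 3 of the 32 genes were called, all higher in metastases, where 5.46% of all genes were called (2.88% higher and 2.58% lower). No member lay wholly above or wholly below the tumors, against 0.245% and 0.0258% of all genes. The 3 called genes were Acss2, Fasn and Elovl5. This fit takes the samples as independent, although 7 sample numbers occur in both groups. A fit with those numbers as blocks is given at the end. The median difference of the 32 was 0.11, against -0.03 over all genes.

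Acss2 ran from -1.84 to 0.08, median -0.88, in the 10 metastases against -2.42 to -1.30, median -1.94, in the 23 tumors. In 8 of 10 metastases it lay above every tumor, and the difference was 1.13 ± 0.159, or 2.18-fold (limma adjusted p = 7.39e-06). Fasn ran from -1.17 to -0.56, median -0.83, against -3.23 to -0.95, median -1.37. It too lay above every tumor in 8 of 10 metastases, at 1.53-fold (limma adjusted p = 0.0123). Elovl5 ran from -1.31 to -0.44, median -1.08, against -1.95 to -0.99, median -1.52, and was 1.36-fold higher (limma adjusted p = 0.00631). Without the arrays of SD over 1.3 Acss2 and Fasn kept limma adjusted p of 0.00111 and 0.00196, and Elovl5 had 0.0823. Acly and Acaca were not called. Acly ran from -1.49 to -0.93, median -1.18, and Acaca from -0.97 to -0.50, median -0.78, in metastases, both overlapping the tumors. No gene of mitochondrial oxidation was called.

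Lung epithelium genes were high in the same metastases. Of the 8 measured, 6 were higher in Wnt-1 metastases than in tumors, with a median difference of 3.27. Scgb1a1, the club cell secretory protein, was higher by 7.41, Sftpc, a surfactant protein of alveolar cells, by 6.33, and Sftpb by 3.74. The mean of the 8 genes ran from -0.74 to 1.39 in Wnt-1 metastases and from -4.36 to -2.16 in Wnt-1 tumors. Across the 10 metastases this mean and Acss2 had a Pearson r of 0.967 (permutation p = 4e-05, adjusted p = 0.00132) and a Spearman rho of 0.927 (permutation p = 0.00033, adjusted p = 0.00436), and r was 0.933 without the 2 metastases farthest from the median. For Elovl5 r was 0.542 (permutation p = 0.107, adjusted p = 0.205) and rho 0.564 (permutation p = 0.0953, adjusted p = 0.21), with r of 0.641 without those 2. For Fasn r was 0.339 (permutation p = 0.338, adjusted p = 0.464) and rho 0.442 (permutation p = 0.206, adjusted p = 0.358), with r of 0.308 without those 2. These 3 relations belong to a family of 66 that was adjusted together. Endothelial genes were higher in metastases for 5 of 10 with none lower. The part of lung tissue in the higher Acss2, Fasn and Elovl5 was not tested. The metastasis with the highest lung mean, array 47 at 1.39, had the highest Acss2 at 0.08, and array 62, with the lowest lung mean at -0.74, had the lowest Acss2 at -1.84.

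**Figure D4:**
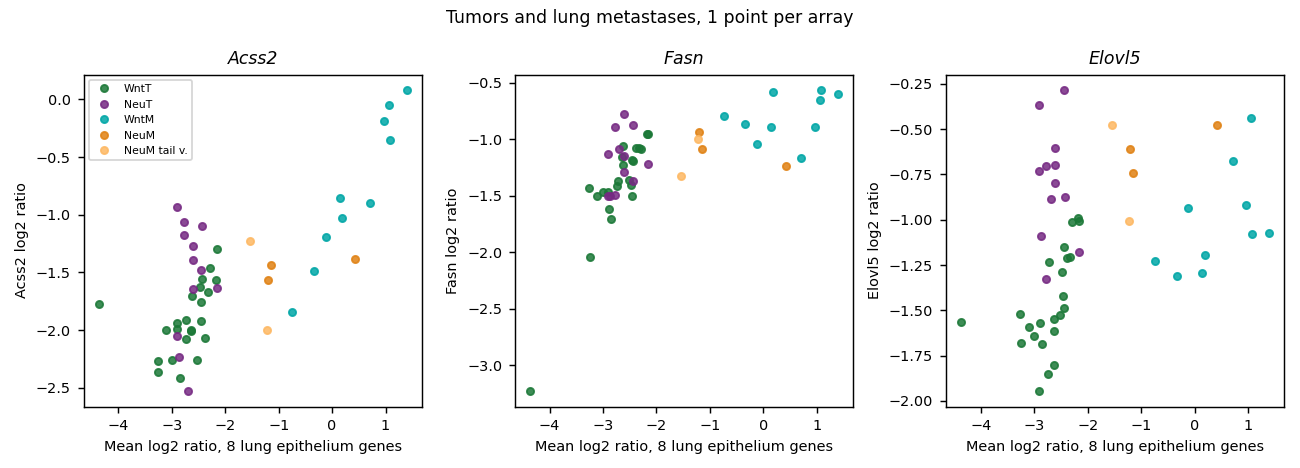
Log2 ratio of Acss2, Fasn and Elovl5 (vertical) against the mean log2 ratio of 8 lung epithelium genes (horizontal) in tumors and lung metastases, 1 point per array, coloured by group. Wnt-1 metastases lie to the right of all tumors, and among them Acss2 climbs with the lung mean from -1.84 to 0.08.

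Partner lists moved little in this step. Of 11 lipogenic partners 1 was higher, Mid1ip1 at 0.88, and of 21 uptake and storage genes 1 was higher, Cd36 at 1.00 (limma adjusted p = 1.65e-08), which the adipocyte list also holds. None of the 24 oxidation partners, 15 regulators or 10 cholesterol genes was called by limma, with an unadjusted p under 0.05 in 2, 3 and 1 of them. Between Neu metastases and Neu tumors none of the 32 genes was called by limma, and 0 had an unadjusted p under 0.05, where 0.155% of all genes were called, all of them higher. No member lay wholly above or below the tumors, against 0.721% and 0.219% of all genes. The difference for Acss2 was 0.08 with a 95% interval from -0.51 to 0.67, for Fasn 0.10 from -0.23 to 0.43, and for Elovl5 0.19 from -0.20 to 0.57. The lung mean of the 3 Neu metastases was -1.20, -1.14 and 0.42. The step from tumor to metastasis was also compared between the models in 1 fit with an interaction term. Over all 7766 genes 4 passed, none of them a member, and for Acss2 the term was 1.05 ± 0.323 (SE, limma adjusted p = 0.288).

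Intestinal fat was the tissue of comparison for adipocytes. Against virgin glands 2 genes were higher and 1 lower in fat, where 7.49% of all genes were called (4.3% higher and 3.19% lower). After quantile normalization 1 was higher and 3 lower. All fat samples lay above all virgin glands for 5 of the 32 and below them for 6, against 11% and 16.8% of all genes. Mgll was at 3.47, 3.48 and 3.52 in fat, above all virgin glands and 2.56-fold higher (limma adjusted p = 0.0244). Dgat2 was at 2.73, 2.82 and 3.12, again above all virgin glands and 2.25-fold higher (limma adjusted p = 0.0197). Acss1 was at -0.93, -0.92 and -0.79, below all virgin glands at -0.42 to -0.04, and 1.59-fold lower (limma adjusted p = 0.0175). These calls were fragile: without virgin gland 17 or fat 45 the count was 1, and without virgin gland 27 it was 0. Fasn, at 1.22, 1.22 and 1.53 in fat, Acaca, at 0.50, 0.94 and 1.07, and Acly, at -0.50, 0.12 and 0.56, were not called. Hadhb, at 1.40, 1.52 and 1.77, fell between the lower pair and the upper 3 virgin glands. Of 13 adipocyte genes 11 were higher and none lower in fat than in virgin glands, and of 9 skeletal muscle genes 7 were lower.

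Against all 35 tumors 18 of the 32 genes were higher in fat and 4 lower, where 54.2% of all genes were called (21.2% higher and 33% lower). All fat samples lay above all tumors for 15 of the 32 and below them for 2, against 11.6% and 9.98% of all genes. Dgat2 was 19.2-fold higher, Mgll 16-fold, Acss2 6.72-fold, Fasn 6.31-fold and Hmgcs1 5.07-fold. In each of these 5 genes the 3 fat samples lay above every tumor. Oxidation genes were higher by up to 4.67-fold for Hadhb and 4.47-fold for Decr1. Acss1 was 2.03-fold lower, with all 3 fat samples below every tumor. Acot3 was lower at -8.33, -2.0 and -1.71. The first value came from array 44, and without that array the difference was -1.69 in place of -3.85. Cpt1c, at -2.70 on array 44 and -0.15 and 0.49 on the others, and Acot8 were no longer called without array 44, with limma adjusted p of 0.249 and 0.875. Partner lists pointed the same way, with 18 of 24 oxidation partners higher and 4 lower and 13 of 21 uptake and storage genes higher and 2 lower. The smallest adjusted p of each list were those of Crat at 2.52 and Lpl at 6.03.

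Some genes rest on clones that disagree. Of the 32 genes, 19 had 1 clone, 8 had 2 and 5 had 3. The clones of Elovl6 measured different patterns. The first was at 1.35, 2.06, 2.87, 2.98 and 3.12 in virgin glands, and averaged -0.74 in Wnt-1 and 0.13 in Neu tumors. The second was at 0.05, 0.24, 0.29, 0.52 and 0.56 in virgin glands, and averaged 0.40 in Wnt-1 and 2.73 in Neu tumors. From virgin gland to Neu tumor the first clone therefore fell by 2.35 and the second rose by 2.40 (limma adjusted p = 6.48e-08 and 5.87e-09), and their mean, at 1.40 and 1.43, was not called. Between the models both clones were lower in Wnt-1 tumors, by 0.87 and 2.33 on the log2 scale, with overlap in the first clone only. Fasn had 2 clones that fell from virgin to hyperplastic gland, by 2.68 and 1.49, and 1 whose difference of -0.24 was not called. In Wnt-1 metastases the first Fasn clone was higher than in tumors by 1.03 (limma adjusted p = 2.55e-06), the second by 0.71 (limma adjusted p = 0.407) and the third by 0.09 (limma adjusted p = 0.797). The second clone of array WntT 42 stood at -7.86. The first Acss1 clone averaged -0.56 in Wnt-1 and 0.52 in Neu tumors (limma adjusted p = 2.18e-11) and the second 0.43 and 0.55 (limma adjusted p = 0.156). From virgin gland to Neu tumor these clones differed by 1.33 (limma adjusted p = 2.64e-06) and 0.16 (limma adjusted p = 0.182), and from virgin gland to fat by -1.09 (limma adjusted p = 0.00869) and -0.25 (limma adjusted p = 0.169), so that in these 3 comparisons only the first Acss1 clone was called. In Dgat2, 1 of 3 clones, and in Acad11, 1 of 3, was nearly flat from virgin to hyperplastic gland, at -0.16 and 0.04. This Acad11 clone averaged -0.11 in virgin glands, -0.08 in hyperplastic glands and 0.02 in Wnt-1 tumors. In Fads3 the first clone was lower by 0.22 on the log2 scale and the second higher by 0.35 in Wnt-1 than in Neu tumors, and the mean was not called. Where every clone had to be called in the same direction, 15 of the 32 genes were called between hyperplastic and virgin glands. The count was also 15 between Wnt-1 and Neu tumors. The share of all genes under that rule was not computed. With clones averaged, 23.8% and 45.8% of all genes were called in these comparisons.

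**Figure D5:**
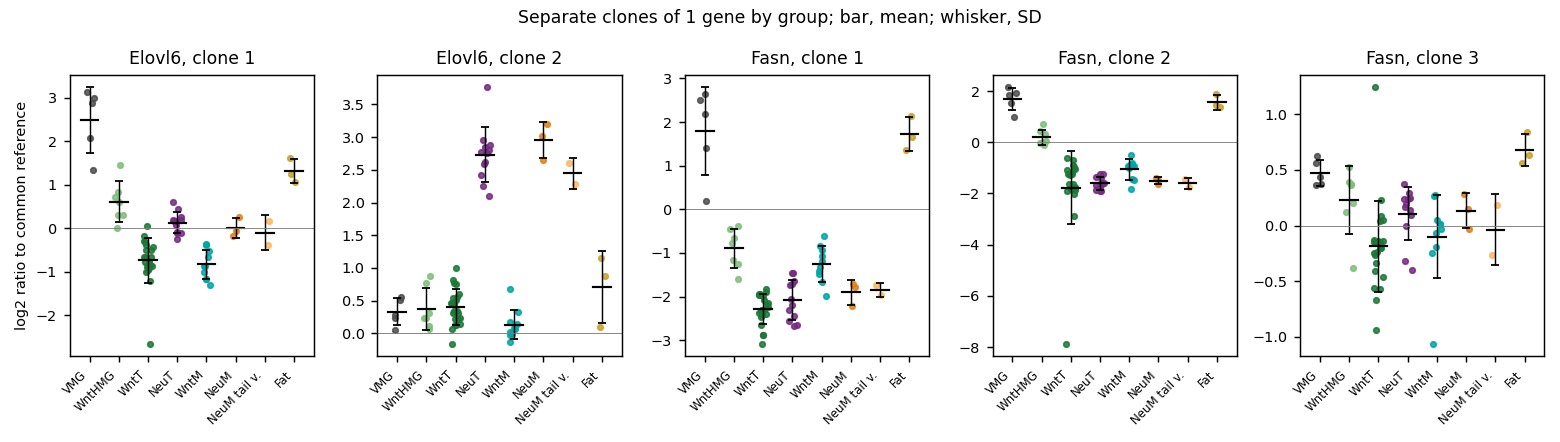
Log2 ratio to the common reference of the 2 Elovl6 clones and the 3 Fasn clones by group, 1 point per array, with mean (bar) and SD (whisker), each panel on its own scale. The first Elovl6 clone is highest in virgin glands and the second in Neu tumors and metastases, and the third Fasn clone has means of 0.47 in virgin glands and -0.19 in Wnt-1 tumors.

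Within the 23 Wnt-1 tumors, Fasn was set against the other 31 genes. By Pearson correlation 8 had an adjusted permutation p under 0.05, all positive, and 5 of them also by Spearman. An unadjusted permutation p under 0.05 by both measures was found for 8 of the 31, or 25.8%, and for 16.5% of all genes. The closest was Dgat2, with r of 0.9 (permutation p = 1e-05, the smallest that the permutations can give, adjusted p = 0.00066) and rho of 0.792 (permutation p = 2e-05, adjusted p = 0.00033). Without the 2 tumors farthest from the median of Fasn r was 0.872. Dgat1 had r of 0.81 (permutation p = 0.0005, adjusted p = 0.0055) and rho of 0.666 (permutation p = 0.00073, adjusted p = 0.00643), with r of 0.455 without those 2 tumors. Acaca had r of 0.68 (permutation p = 0.00064, adjusted p = 0.00603) and rho of 0.572 (permutation p = 0.00501, adjusted p = 0.0195), with r of 0.675 without those 2 tumors. For Elovl6 r was 0.635 (permutation p = 0.0099, adjusted p = 0.0384) but rho was 0.177 (permutation p = 0.419, adjusted p = 0.531) and r was -0.04 without those 2, so that relation rests on them. Cpt1c ran the other way, with r of -0.46 (permutation p = 0.0187, adjusted p = 0.0651), rho of -0.78 (permutation p = 2e-05, adjusted p = 0.00033) and r of -0.84 without those 2.

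The adipocyte mean of a Wnt-1 tumor was related to 9 of the 32 genes by both measures after adjustment, 8 of them positively. By unadjusted permutation p it was 10 of the 32, or 31.2%, where 25.7% of all genes passed. Dgat2 had r of 0.697 (permutation p = 6e-05, adjusted p = 0.00132) and rho of 0.814 (permutation p = 1e-05, adjusted p = 0.00033), with r of 0.759 without the 2 tumors of most extreme adipocyte mean. Fasn had r of 0.58 (permutation p = 0.00153, adjusted p = 0.0107) and rho of 0.8 (permutation p = 1e-05, adjusted p = 0.00033), with r of 0.686 without them. Elovl5 and Hadhb had r of 0.713 (permutation p = 0.00014, adjusted p = 0.00185) and 0.706 (permutation p = 0.00011, adjusted p = 0.00182). Their rho was 0.679 (permutation p = 0.00056, adjusted p = 0.00616) and 0.654 (permutation p = 0.00078, adjusted p = 0.00643), and r was 0.647 and 0.571 without the 2 extreme tumors. The relation of Cpt1c was negative here too, with r of -0.56 (permutation p = 0.00593, adjusted p = 0.028), rho of -0.60 (permutation p = 0.00281, adjusted p = 0.0132) and r of -0.57 without them. Acly, Acaca, Dgat1 and Hmgcs1 made up the rest. The Wnt-1 tumors carried no batch label to recompute these relations within.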

How the data were processed

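The authors hybridized Cy5-labelled sample RNA and Cy3-labelled reference RNA to spotted cDNA arrays with the same dyes throughout, scanned and normalized them, and deposited log2 ratios of sample to reference. These values were used as given. The authors' spot quality scores and the smaller arrays were not used here. Clones were averaged per gene over single symbols, and groups were compared with limma 3.58.1 (lmFit and eBayes) in R 4.3.3 on all 7766 genes, with a Benjamini-Hochberg adjusted p under 0.05. Relations across samples used 100000 permutations, two-sided, and 10000 for the share over all genes. Intervals cover 95%. The number of arrays limits the precision. The members, gene lists and tests were chosen with earlier results of these data known. Every member could be named. Values by sample are given for the 3 largest rises and falls called in a comparison and for Fasn, Acly and Acaca, with a few others chosen after their values were seen. From each partner list the 3 genes of smallest adjusted p could be named. Clones of a gene are numbered in row order, and 3 clones with several symbols that include a member were left out.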

Additional observations from a re-analysis of the deposited data

Results flagged for a closer look

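In groups of 4 to 10 samples, the gap of an extreme sample from its neighbour was set against the range of its group by Dixon's criterion. It passed in 11 of 96 gene and group pairs, or 11.5%, where chance gives about 1 in 20. In virgin glands array 17 was far below the others for Acly at -0.27, Acss2 at 0.52 and Fasn at 0.54, and array 29 was low for Cptp at -0.70. In hyperplastic glands array 11 was low for Acadsb at -1.40 and high for Fads6 at 0.26, array 5 was high for Cptp at 0.0768 and array 9 high for Dgat1 at 0.0637. In Wnt-1 metastases array 50 was low for Acot4 at -7.12 and Acadm at -3.50, and array 52 was low for Acad11 at -1.39. Arrays 50 and 52 are among those of wide spread. Without virgin gland 17, 21 of the 32 genes were called between hyperplastic and virgin glands, in place of 20.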

How the results depend on the processing

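Median centring, quantile normalization and limma with trend and robust settings kept counts of called genes within 1.5 times the main value in every comparison. No called member changed direction in the alternatives that refitted the gene means. The settings on clones, fold minimum and permutation gave counts only, without a check of direction. A fold minimum of 1.5, which removes small differences by construction, left 9 genes between Wnt-1 and Neu tumors and 9 between Wnt-1 tumors and hyperplastic glands. Between fat and virgin glands 12 genes were called with all groups in one fit, 5 with extreme ratios set missing and 1 with every clone called the same way. Leaving out 1 sample there gave 0 to 4. Between Wnt-1 and Neu metastases it gave 5 to 7. The causes were not tested. The permutation t test of the methods, run on 5 comparisons at its stricter threshold, gave 13 to 22 called genes against 18 to 27.

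Sample numbers shared by tumors and metastases were checked for pairing. The correlation of their deviations ran from -0.06 to 0.304 over 7 Wnt-1 numbers, 3 of them over 0.1, with 1 closest to its own number, and from -0.01 to 0.102 over 3 Neu numbers. The numbers were therefore not taken as pairs. With the number as a replicate block, 0 of the 32 genes were called between Wnt-1 metastases and tumors, with limma adjusted p of 0.0597 for Acss2, 0.115 for Fasn and 0.203 for Elovl5. The same samples without the block, a setting chosen after seeing the data, gave 2. All 3 genes were higher in the metastasis in 7 of 7 shared numbers. They were picked as higher in these same metastases, so this count is no separate support. Acadsb, which was not called, was also higher in 7 of 7. In Neu samples both fits gave 0.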
